A study of Mus musculus with 6 samples.

Results

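The mitochondrial ribosomal proteins are the nuclear-encoded subunits of the ribosome that works inside mitochondria. Their genes were taken here as the protein-coding genes whose GENCODE M21 symbol starts with Mrpl (large subunit names) or Mrps (small subunit names). The rule found 78 genes among 38828 obtained by summing the deposited transcript rows, 49 with large and 29 with small subunit names. Pseudogenes with such names were left out. RNA sequencing was done on Hepa1-6, a liver tumour line from mouse that stands in for hepatocytes. The control group of 3 libraries received siRNA against Renilla luciferase (Luc siRNA), for which mouse cells have no target gene, and the other 3 libraries received siRNA against Crebl2, whose product is a leucine zipper protein akin to the CREB factors. Both groups were the same unmodified line, transfected with Lipofectamine RNAiMAX for 3 days in DMEM with 4.5 g/L glucose and 10% serum. The sequence and number of siRNAs per target are not given in the sources used here, so effects of the Crebl2 siRNA other than loss of Crebl2 cannot be told apart from that loss. Whether the libraries came from separate cultures is not given either; the tests use the spread among these 6 libraries, which may be no more than technical.

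The mitochondrial ribosome translates the few mRNAs of the mitochondrial genome, all of which encode membrane subunits of the respiratory chain and the ATP synthase. Its rRNAs are made inside the organelle, while every protein subunit is encoded in the nucleus, made in the cytosol and imported. The large subunit carries the peptidyl transferase centre and the exit tunnel, and the small subunit carries the decoding centre. Compared with its bacterial relatives this ribosome has less RNA and more protein, so that some subunits have counterparts in all ribosomes, some only in bacteria, and some are specific to mitochondria.

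Total counts ran from 27082572 to 29158489 per library. Crebl2 mRNA was at 114, 113 and 112 CPM (a gene's counts relative to its library's total, scaled by edgeR) in the control libraries and at 29.1, 29.8 and 32.3 CPM after Crebl2 siRNA, 26.9% of the control mean (log2 fold change -1.90, SE 0.0582, edgeR adjusted p = 2.83e-12). Of the hepatocyte and hepatoma markers, albumin (Alb), alpha-fetoprotein (Afp) and transferrin (Trf) were well expressed, and the summed level of the list of 10 was 995 to 1082 CPM in controls and 998 to 1077 CPM after knockdown. Within that list Afp rose from 278 to 356.5 CPM (log2 fold change 0.36, edgeR adjusted p = 9.26e-06) and Trf fell from 178 to 133 CPM (-0.42, edgeR adjusted p = 7.27e-05), while Alb had -0.11 and did not pass. Hnf4a, a defining hepatocyte factor, had no counts, but only 6 bases of its rows are not shared with another row. Endothelial markers summed to at most 0.144 CPM and leukocyte markers to at most 1.05 CPM. Of these, Tek, Ptprc and Itgam had no counts, with 48, 429 and 274 bases not shared with another row. The low sums are thus no firm measure of absence. The list of 5 fibroblast markers moved with the groups (176 to 182 CPM in controls, 119 to 131 CPM after knockdown), nearly all of it decorin (Dcn), and so did the 5 muscle markers (44.9 to 54.3 against 59.9 to 66.8 CPM), nearly all of it desmin (Des). Their part in the results on ribosomal proteins was not tested.

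Of the 78 genes, 64 had enough counts to be tested, 41 of the large and 23 of the small subunit names. The other 14 were Mrpl1, Mrpl2, Mrpl20, Mrpl23, Mrpl48, Mrpl52, Mrpl53, Mrpl58, Mrps10, Mrps12, Mrps18c, Mrps21, Mrps23 and Mrps36, with at most 62 counts over the 6 libraries and 5 of them at 0. The deposited counts appear to hold only reads that fall on 1 transcript row, and several of these genes have overlapping transcript models that leave few bases of their own. Mrpl53 has none, Mrpl2 has 28 and 8 of the 14 have at most 130, and for these 8 a low count is no measure of low expression. Mrpl48 has 1214 unique bases over 3 rows and had 18 counts, and Mrpl1 has 864 over 3 rows and had 26. Reads on bases that the rows of a gene share appear uncounted, so these low counts are no firm measure of low expression either. The 64 tested genes are thus not the whole ribosome.

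Levels can be set side by side only per length, here as control CPM per kilobase of bases unique to the gene's rows. Among the 37 tested genes with a single row of which at least 95% of bases are unique, this level ran from 12.3 for Mrpl57 to 155.5 for Mrpl38, a 12.6-fold range among subunits that each ribosome holds in a single copy. The length is that of the annotated row, with a 3' UTR of 2471 of 2877 bases for Mrpl57 and 177 of 1411 for Mrpl38. Whether these cells use the annotated 3' ends was not tested, so part of the range may come from the annotation. Mrpl38, a mitochondria-specific protein of the central protuberance, stood at 219 ± 5.35 CPM (SD, n = 3). The median was 62.4 CPM per kilobase over 24 large subunit genes and 37.85 over 13 small subunit genes. Among all genes with at least 200 unique bases, the highest levels of the large subunit were those of Mrpl13 (254 CPM per kilobase, with 893 of 1223 bases unique), Mrpl38 and Mrpl34 (154 CPM per kilobase). The highest of the small subunit names were Mrps18b (114.8, from only 276 unique bases), Mrps15 (114.7) and Mrps18a (111), 3 values close to each other.

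Genes of the mitochondrial ribosome changed little after Crebl2 siRNA, and those that passed the test were mostly higher. Of the 64 tested, 20 rose, 3 fell and 41 did not pass at an edgeR adjusted p under 0.05, where 18.8% of all 11616 tested genes rose and 20.1% fell. The median log2 fold change was 0.09, against 0.01 over all genes tested, and the quartiles of the 64 values were -0.03 and 0.18, against -0.21 and 0.21 over all genes. None of the 64 differed by 1.5-fold or more, and 8 differed by at least 1.2-fold. The 64 had a median level of 66.2 CPM, against 16.0 CPM over all genes tested, and the part of level in their narrower spread was not tested. The 3 Crebl2 siRNA libraries lay above the 3 control libraries for 28 of the 64 genes and below them for 5, where the shares over all genes tested were 23.8% above and 24.9% below. The number raised was 11 without Luc siRNA replicate 3, and the number lowered was 1 without Luc siRNA replicate 2 or without Crebl2 siRNA replicate 2. With library size as the scaling 28 members rose and 1 fell, beside 2741 raised and 1920 lowered genes of all 11616, where TMM gave 2180 and 2338. A test against a change of 1.2-fold kept 3 raised genes, Mrpl13, Mrpl39 and Mrpl42, and no lowered one, while DESeq2 and limma-voom each gave 20 raised and 3 lowered genes.

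**Figure D1:**
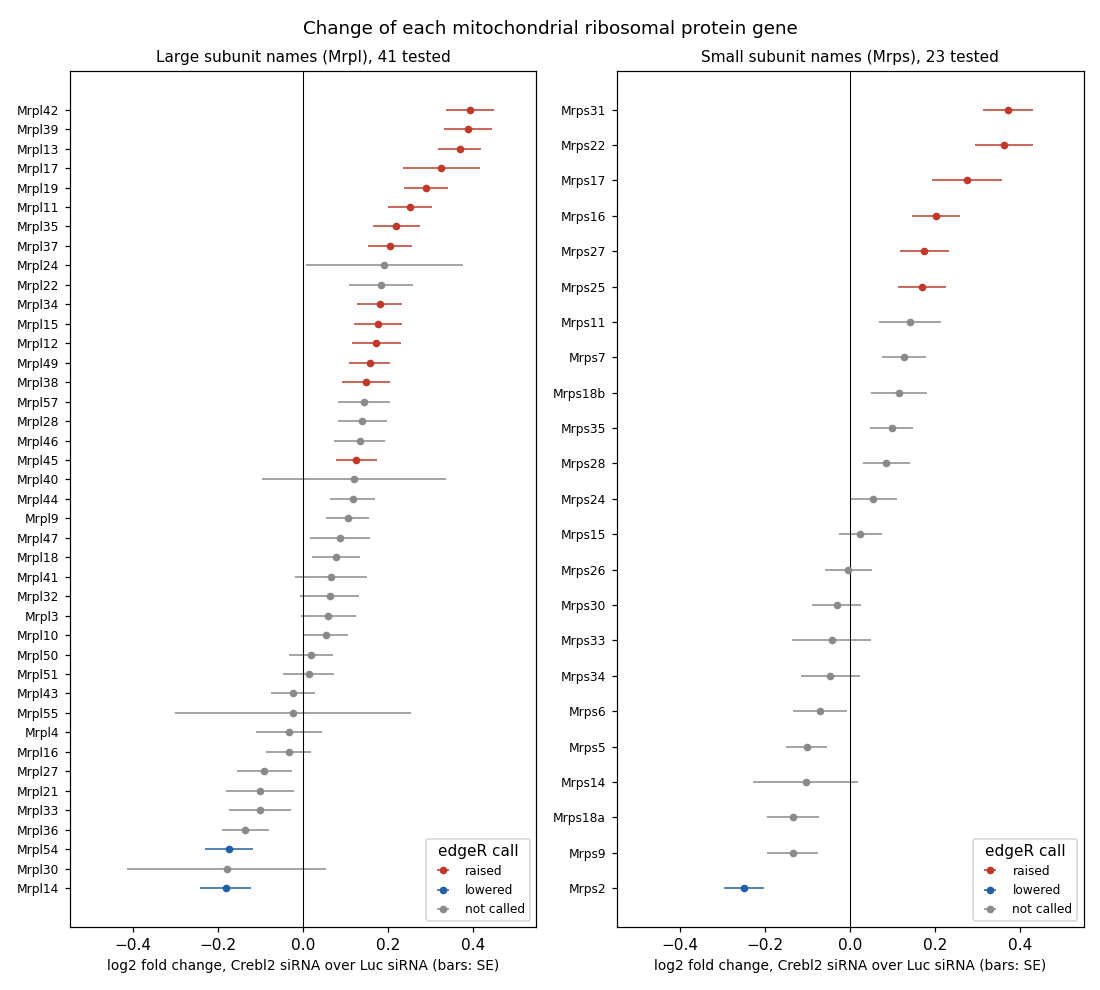
Log2 fold change of each tested gene, Crebl2 siRNA over Luc siRNA (x axis), with bars for its standard error, for the 41 large subunit names on the left and the 23 small subunit names on the right, coloured by the edgeR call. The 20 raised genes reach 0.39 at most, the 3 lowered ones reach -0.25, and most genes lie to the right of 0.

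In the large subunit 14 of 41 genes rose (34.15%) and 2 fell (4.88%), against 18.8% and 20.1% of all genes tested. The number raised was 8 without Luc siRNA replicate 3 and 9 without Crebl2 siRNA replicate 2, and the number lowered was 0 without Luc siRNA replicate 2 or Crebl2 siRNA replicate 2 and 1 without Luc siRNA replicate 1 or 3. The 3 with the smallest p were Mrpl13, Mrpl39 and Mrpl42. Mrpl13, the counterpart of a protein found in all ribosomes (chromosome 15, 55534094 to 55557748, minus strand, GRCm38), stood at 221.5, 232 and 227 CPM in the control libraries and at 281, 287 and 311 CPM in the Crebl2 siRNA libraries. The lowest knockdown library was thus well above the highest control, and the change was 0.37 in log2 units (SE 0.0511, edgeR adjusted p = 2.65e-05).

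Mrpl42, a mitochondria-specific subunit (chromosome 10, 95480805 to 95501940, minus strand), had 62.0, 65.9 and 59.1 CPM in controls and 83.8, 79.9 and 81.9 CPM after knockdown. Its change of 0.39 in log2 units (SE 0.0568, edgeR adjusted p = 4.14e-05) was the highest of the 64, and the groups were again apart. Mrpl39, also specific to mitochondria (chromosome 16, 84717576 to 84735742, minus strand), had 59.1, 59.7 and 55.5 CPM in controls and 75.4, 74.0 and 78.8 CPM after knockdown (log2 fold change 0.39, SE 0.056, edgeR adjusted p = 3.94e-05). These 3 genes lie on different chromosomes and rose by close to 30%, with fitted changes of 29.2, 31.3 and 31.0%.

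Of the other raised genes that the naming rule gives, Mrpl19, which in bacteria sits at the interface with the small subunit, went from 105 ± 3.13 CPM to 128.5 ± 4.28 CPM (SD, n = 3; log2 fold change 0.29, edgeR adjusted p = 0.000305). Mrpl11, at the base of the stalk that recruits translational GTPases, rose from 87.8 ± 3.27 to 104.5 ± 1.54 CPM (log2 fold change 0.25, edgeR adjusted p = 0.00104). Mrpl35 (0.22) and Mrpl34 (0.18), both with bacterial counterparts, rose too, as did Mrpl38 (0.15), whose libraries overlapped between groups. Mrpl34 lost its call without Luc siRNA replicate 3 or Crebl2 siRNA replicate 2, and Mrpl38 did so in 6 of 15 alternatives.

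The remaining 6 raised genes fall outside the naming rule and were chosen after their values were seen. They were Mrpl17 (log2 fold change 0.33, from 10.5 to 13.1 CPM), Mrpl37 (0.21), Mrpl15 (0.18), the stalk protein Mrpl12 (0.17), Mrpl49 (0.16) and Mrpl45 (0.13), a protein near the tunnel exit that contacts the inner membrane. Mrpl45 had the highest CPM of the 64 genes, at 305, 287 and 296 in controls and 333, 325 and 312 after knockdown. Its edgeR adjusted p of 0.0492 was at the threshold and it kept its call in 7 of 15 alternatives. Mrpl17, Mrpl37, Mrpl15, Mrpl12 and Mrpl49 kept theirs in 14, 15, 12, 11 and 11 of 15.

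**Figure D2:**
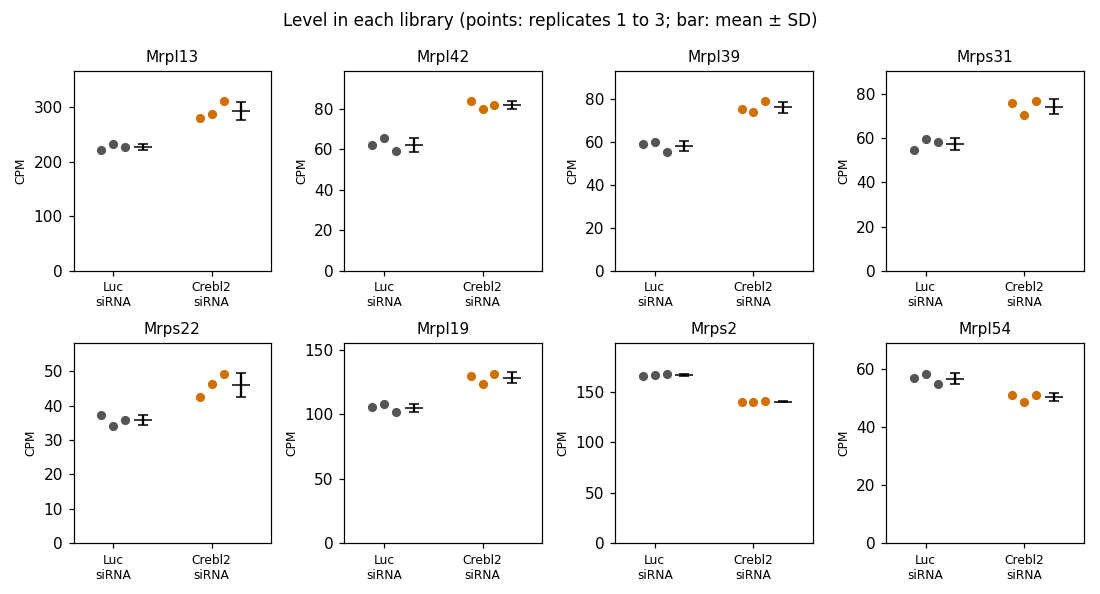
CPM (y axis, from 0) in each library for 6 raised genes (Mrpl13, Mrpl42, Mrpl39, Mrps31, Mrps22, Mrpl19) and 2 lowered ones (Mrps2, Mrpl54), with points for replicates 1 to 3 and a bar for the mean ± SD (n = 3). In each of the 8 panels the 2 groups do not overlap, and the 3 values of Mrps2 in each group nearly coincide.

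In the small subunit 6 of 23 genes rose (26.1%) and 1 fell (4.35%), against 18.8% and 20.1% of all genes tested. The number raised was 3 without Luc siRNA replicate 3, and the number lowered was 2 without Crebl2 siRNA replicate 1 or 3. Mrps31, a mitochondria-specific protein of the subunit's head (chromosome 8, 22411361 to 22429665, plus strand), had 54.4, 59.6 and 58.0 CPM in controls and 75.6, 70.4 and 76.6 CPM after knockdown. No control library reached the lowest knockdown library, and the change was 0.37 in log2 units (SE 0.0586, edgeR adjusted p = 9.79e-05). Mrps22, also mitochondria-specific (chromosome 9, 98588730 to 98601660, minus strand), had 37.2, 34.2 and 35.9 CPM in controls and 42.4, 46.2 and 49.4 CPM after knockdown (log2 fold change 0.36, SE 0.0678, edgeR adjusted p = 0.00046).

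Mrps16, a counterpart of a bacterial protein, rose by 0.20 on the log2 scale, and Mrps27, a protein with pentatricopeptide repeats, and Mrps25 rose by 0.18 and 0.17. Mrps27 and Mrps25 kept their calls in 9 and 10 of 15 alternatives and lost them, among others, with no filter on low counts and with the replicate number as a block. Mrps18b and Mrps15, among the highest per length, had log2 fold changes of 0.11 and 0.02 and did not pass the test.

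Mrps17, the counterpart of a protein found in all ribosomes, was counted on 2 transcript rows that moved in opposite directions. The longer row (5061 bases, 4 exons) held 561, 630 and 625 counts in controls and 835, 812 and 978 after knockdown (log2 fold change 0.53, SE 0.0849, edgeR adjusted p = 8.57e-05 among rows). The shorter row (2182 bases, 3 exons) held 289, 304 and 323 counts in controls and 215, 203 and 265 after knockdown (log2 fold change -0.42, SE 0.112, edgeR adjusted p = 0.00611 among rows). Both start within the same exon region of chromosome 5 and differ at their 3' ends, at 129722556 and 129718875. Summed per gene, Mrps17 rose by 0.28 (edgeR adjusted p = 0.0136), a call that was lost without Luc siRNA replicate 1 or Crebl2 siRNA replicate 3. For Mrpl15 and Mrpl3, the other 2 genes with 2 tested rows, both rows of Mrpl15 had positive values (0.18 and 0.12, the first past the test), and those of Mrpl3 had 0.08 and -0.08, neither past it.

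Of the 3 lowered genes, Mrps2 was the clearest. It encodes the counterpart of a protein found in all ribosomes, on the small subunit (chromosome 2, 28468066 to 28471178, plus strand). Control libraries held 165.7, 166.5 and 168 CPM and Crebl2 siRNA libraries 139.8, 140.2 and 140.5 CPM, so the libraries of a group nearly coincided and the groups lay far apart relative to that spread. The change was -0.25 in log2 units (SE 0.0469, edgeR adjusted p = 0.000477), called in each of the 15 alternatives other than the test against a 1.2-fold change.

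The other 2 lay in the large subunit. Mrpl14, at the interface between subunits, had 76.9, 76.6 and 76.3 CPM in controls and 73.0, 66.9 and 62.6 CPM after knockdown (log2 fold change -0.18, SE 0.0603, edgeR adjusted p = 0.0242). Mrpl54, specific to mitochondria, fell from 56.9 ± 1.9 to 50.4 ± 1.31 CPM (log2 fold change -0.17, edgeR adjusted p = 0.0224). Mrpl14 kept its call in 9 and Mrpl54 in 10 of 15 alternatives, and neither did with library size as the scaling. Mrps9 stood at -0.14 in log2 units (edgeR adjusted p = 0.0828) and passed only without Crebl2 siRNA replicate 3 (edgeR adjusted p = 0.0196). Mrpl30, with about 1 CPM, had -0.18 with a standard error of 0.235.

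The subunits were compared through their medians and their summed counts, as a description. The median log2 fold change was 0.12 over 41 large and 0.05 over 23 small subunit genes, a difference of 0.06 that was not tested. It shrank to 0.02 without Luc siRNA replicate 2, to 0.03 without Crebl2 siRNA replicate 3, and to 0.02 when genes were placed by structure instead of by name. Without Crebl2 siRNA replicate 1 the small subunit median was 0.02 and the difference 0.09. Structure puts Mrps30 and Mrps18a in the large subunit and Mrps36 outside the ribosome, in the 2-oxoglutarate dehydrogenase complex. Mrps30 and Mrps18a had log2 fold changes of -0.03 and -0.13 and did not pass the test (edgeR adjusted p = 0.703 and 0.0928), although Mrps18a did without Crebl2 siRNA replicate 1 (-0.17, edgeR adjusted p = 0.0392).

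By library, the median over large subunit genes lay at -0.01, 0.04 and -0.02 in log2 units from the control mean in controls and at 0.10, 0.09 and 0.10 after knockdown. Over small subunit genes it lay at -0.01, 0.04 and 0.01 in controls and at 0.09, 0.05 and 0.05 after knockdown, so the highest control and the lowest knockdown library were 0.01 apart. The share of counts on the 78 genes was 0.456, 0.469 and 0.458% in controls and 0.512, 0.512 and 0.507% after knockdown. The log2 ratio of summed large to small subunit counts was 0.968, 0.962 and 0.956 in controls and 1.06, 1.05 and 1.06 after knockdown. Without Mrpl13 and Mrps2, a choice made after seeing their values, it was 1.02, 1.01 and 1.01 in controls and 1.06, 1.05 and 1.06 after knockdown. These sums weight genes by their counts, and the control libraries were below the knockdown libraries in both forms.

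**Figure D3:**
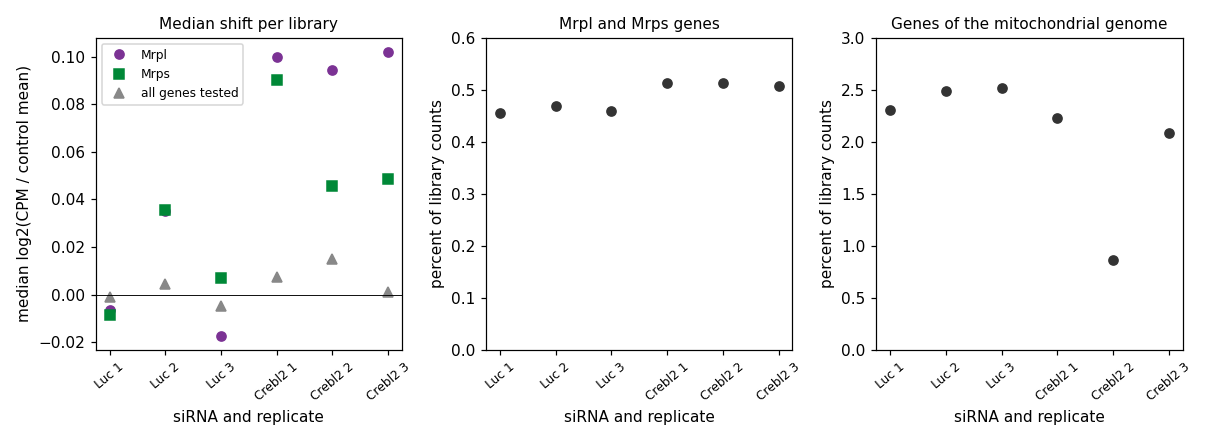
Left, median over genes of log2(CPM / control mean) in each library for large subunit names, small subunit names and all genes tested. Middle and right, percent of each library's counts on the 78 genes and on genes of the mitochondrial genome (both axes from 0). The 78 genes take 0.507 to 0.512% in each knockdown library, while the mitochondrial genome takes 0.859% in Crebl2 siRNA replicate 2 and 2.09 to 2.52% elsewhere.

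Grouped by origin, 4 of 22 tested genes with counterparts in all ribosomes rose (18.2%) and 2 fell (9.09%), with a median log2 fold change of 0.06. Over all genes tested 18.8% rose and 20.1% fell, so the share raised in this class was close to that of all genes. Of 16 with counterparts in bacteria only, 6 rose and none fell by edgeR (1 lower at an unadjusted p under 0.05, none by DESeq2 or limma-voom), with a median of 0.10. Of 26 specific to mitochondria, 10 rose and 1 fell (median 0.12). The shares raised in these last classes were 37.5% and 38.5%. The 4 highest values among mitochondria-specific genes were shared between the subunits, with Mrpl42 and Mrpl39 in the large and Mrps31 and Mrps22 in the small one. Differences between these classes were not tested.

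**Figure D4:**
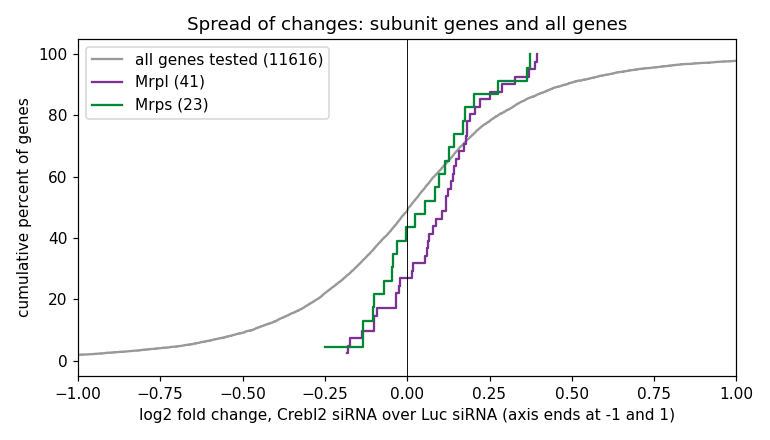
Cumulative percent of genes (y axis) by log2 fold change, Crebl2 siRNA over Luc siRNA (x axis, shown from -1 to 1), for all 11616 genes tested, 41 large and 23 small subunit names. Both subunit curves are steeper than the curve of all genes, since no subunit gene lies beyond -0.25 or 0.39. The median level was 16.0 CPM over all genes tested, 66.6 over large and 65.8 over small subunit names. The part of level in the spread was not tested.

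A few subunits carry other names. Of 5 such genes tested (Dap3, Chchd1, Aurkaip1, Ptcd3 and Gadd45gip1), 2 rose and none fell by edgeR, against 18.8% and 20.1% of all genes tested. None was lower at an unadjusted p under 0.05, by DESeq2 or by limma-voom. Ptcd3, a pentatricopeptide repeat protein of the small subunit, had 134, 126 and 125 CPM in controls and 147, 146 and 169 CPM after knockdown (log2 fold change 0.27, SE 0.0607, edgeR adjusted p = 0.0021). Aurkaip1 rose by 0.67 but from 1.33 CPM, with 111 counts summed over controls and 177 after knockdown, and lost its call without Luc siRNA replicate 2.

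Of 43 factors that assemble this ribosome, modify its RNAs or serve it in translation, 39 were tested. Of these 12 rose (30.8%) and 3 fell (7.69%), against 18.8% and 20.1% of all genes tested (median log2 fold change 0.09). Nsun3, which methylates the mitochondrial methionine tRNA, stood at 16.4, 16.7 and 15.9 CPM in controls and 26.0, 27.7 and 30.2 CPM after knockdown (log2 fold change 0.77, SE 0.0765, edgeR adjusted p = 7.68e-07). Mtg1, a GTPase that acts on the assembling large subunit, stood at 26.4, 28.8 and 27.2 CPM in controls and 45.0, 45.0 and 40.2 CPM after knockdown (0.66, edgeR adjusted p = 1.23e-06). In both, each knockdown library was above each control library by more than the spread within a group. Rcc1l (0.43) and Rpusd4 (0.22), which act on the large subunit rRNA, also rose.

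The lowered factors were Afg3l2, a subunit of the m-AAA protease that matures Mrpl32, the small subunit assembly factor Rbfa and the membrane protein Mpv17l2. Afg3l2 had 265, 266 and 264 CPM in controls and 230.0, 229.8 and 228 CPM after knockdown (log2 fold change -0.21, SE 0.0451, edgeR adjusted p = 0.00153), and its substrate Mrpl32 stood at 0.06 in log2 units (edgeR adjusted p = 0.507). That value rests on a single row annotated as a nonsense-mediated decay transcript and may not follow the mRNA that encodes the protein. Rbfa fell by 0.24 and Mpv17l2 by 0.22, the latter not called without Luc siRNA replicate 2. In a list of 16 regulators of mitochondrial gene expression, 14 were tested and 1 rose, Hcfc1 (0.58, from 2.70 to 4.04 CPM), named after its value was seen. None fell by edgeR, DESeq2 or limma-voom, where 18.8% of all genes tested rose and 20.1% fell by edgeR. At an unadjusted p under 0.05, 1 was lower, Ppargc1a, also named after its value was seen. It went from 4.84 to 3.80 CPM (log2 fold change -0.35, edgeR adjusted p = 0.05003), just short of a call.

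Among the RNAs that this ribosome holds or translates, none rose, where 18.8% of all genes tested rose and 20.1% fell. Of 10 tested mRNAs of the mitochondrial genome 4 fell by edgeR, with 0 higher and 6 lower at an unadjusted p under 0.05. By DESeq2 or limma-voom 0 were higher, while limma-voom called 5 lower and DESeq2 called none lower. Of the 2 tested rRNAs 1 fell by edgeR, 1 by limma-voom and none by DESeq2. The ND2 mRNA (mt-Nd2) had 3333, 3646 and 3575 CPM in controls and 2700, 975 and 2535 CPM after knockdown (log2 fold change -0.77, SE 0.227, edgeR adjusted p = 0.0131). The large subunit rRNA (mt-Rnr2) had 136, 122 and 126 CPM in controls and 96.0, 57.1 and 110 CPM after knockdown (-0.55, edgeR adjusted p = 0.00714). Replicate 2 was the lowest knockdown library in both, and without it the log2 fold changes were -0.42 and -0.31, both still called, with -0.33 for mt-Nd1 in place of -0.66. DESeq2 called none of these 3 (adjusted p = 0.114 for mt-Nd2, 0.155 for mt-Nd1 and 0.1001 for mt-Rnr2), and edgeR did not call mt-Nd1 without Luc siRNA replicate 2 (adjusted p = 0.0504). In Crebl2 siRNA replicate 2 the ribosomal protein genes did not stand apart, with 0.512% of counts, as in replicate 1. In bulk RNA, fewer mitochondria per cell and less RNA per mitochondrion cannot be told apart. The 2 tested rRNAs had a median level of 157 CPM, against 1413 CPM for the 10 mRNAs. How far library preparation set the rRNA values was not tested, so they are no measure of rRNA abundance.

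Genes for the cytosolic ribosome are the closest counterpart. Of 83 genes with symbols of the Rpl and Rps form, 60 were tested. Of these 2 rose (3.33%) and 6 fell (10.0%), against 18.8% and 20.1% of all genes tested. The median log2 fold change was -0.01, with values from -0.59 to 0.50. Of the 60, 15 differed by at least 1.2-fold and 2 by 1.5-fold or more, against 8 and 0 of the 64 mitochondrial ones. Fewer calls thus did not go with fewer changes of that size, and the part of level in the shares called was not tested. Their median level was 14.0 CPM, against 66.2 CPM for the mitochondrial ones. These levels are not per length and reads shared by several rows appear uncounted, so they do not rank the ribosomes by expression. The difference between the ribosomes was not tested.

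Raised, lowered and uncalled members differed in some features that did not enter the choice of genes. The main row had a median length of 2072 bases in the 20 raised, 1162 in the 41 uncalled and 645 in the 3 lowered genes, and over the 64 genes length and log2 fold change had a Spearman rho of 0.327 (Pearson r 0.279), against a rho of -0.0208 over 11586 genes tested. GC content had a median of 47.8, 50.9 and 59.4% in the same order (rho -0.184). Genes share libraries and are not independent, so these are descriptions, and their part in the changes was not tested. A word of 7 bases that was frequent in the 3' UTRs of lowered genes of these libraries, GAAATGT, was found in none of the 3 lowered members, 2 of the 20 raised (Mrps17 and Mrps25) and 6 of the 41 uncalled. The word was chosen for its frequency in lowered genes, so its share there is no result. Among genes tested that have an annotated 3' UTR it was in 29.2% of 2181 lowered, 11.9% of 1890 raised and 16.5% of 5787 uncalled ones, without adjustment for UTR length.

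Promoters were read from RefSeq (GRCm38.p6), where 69 of the 78 genes matched by symbol. Mrpl4, Mrpl13, Mrpl15, Mrpl19, Mrpl38, Mrpl54, Mrps28, Mrps34 and Mrps35 did not. The 250 bases before each start were searched on both strands for motifs of factors known to act on genes of mitochondrial biogenesis or related to Crebl2. The ETS motif CCGGAAG, bound by the GABP factor, was in 18 of the 69 genes (26.1%), against 10.2% of 17492 protein-coding genes and 16.2% of the 7741 of them that were tested. The 69 include members that were not tested, so for each motif the share of tested genes is that of an unlike set. Mrpl48, Mrpl52, Mrpl53, Mrpl58 and Mrps18c hold the ETS motif but were not tested. Among tested members it was in 5 of 16 raised (31.2%), 8 of 37 uncalled (21.6%) and 0 of 2 lowered ones. The palindromic motif of nuclear respiratory factor NRF1, GCGCA directly followed by TGCGC, was in 3 of 69 genes (4.35%), all with large subunit names, against 1.21% of all genes and 1.99% of those tested. The cAMP response element TGACGTCA, the site of CREB factors, was in 2 of 69 genes (2.90%), against 2.20% of all genes and 3.10% of those tested. Shorter or other motifs were counted as well. The NRF1 core GCATGCGC, contained in the longer motif, was in 11.6% of the 69 genes, 3.32% of all and 5.09% of those tested. TGACG, the first 5 letters of the cAMP response element, was in 34.8%, 22.6% and 30.2% in the same order. The YY1 motif AAGATGGC was in 5.80%, 1.77% and 2.51%, the E-box CACGTG in 7.25%, 7.61% and 9.68%, and the SP1 motif GGGCGG in 47.8%, 45.8% and 63.9%. A RefSeq start can differ from that of the row that was counted. Of the 10 windows that follow or are named there (2 with the cAMP response element, 3 with the NRF1 motif and the 5 raised genes with the ETS motif), those of Mrpl39 and Mrps16 lie wholly within the span of the counted row, those of Mrpl16 and Mrpl9 overlap it by 9 and 11 bases, and the other 6 lie outside it.

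The 2 windows with a cAMP response element are shown because Crebl2 is related to the factors that bind it, with the element in capitals, 5′ to 3′ on the gene's strand. Mrpl16 (chr19:11770340-11770399, plus strand) did not pass the test (log2 fold change -0.03) and Mrpl49 (chr19:6057876-6057935, minus strand) rose by 0.16.
Mrpl16: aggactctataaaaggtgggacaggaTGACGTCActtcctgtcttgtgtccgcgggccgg
Mrpl49: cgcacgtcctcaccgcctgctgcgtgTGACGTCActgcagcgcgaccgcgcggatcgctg
The element ends 41 bases before the RefSeq start of Mrpl16 and 146 bases before that of Mrpl49.

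The 3 windows with the NRF1 motif, in capitals, include that of Mrpl39, 1 of the 3 genes with the smallest p, beside 2 that did not pass the test, Mrpl9 (log2 fold change 0.11) and Mrpl32 (0.06). They lie at chr16:84735335-84735394 (minus strand), chr3:94443276-94443335 (plus) and chr13:14613090-14613149 (minus).
Mrpl39: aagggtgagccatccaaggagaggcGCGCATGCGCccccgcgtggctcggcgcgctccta
Mrpl9: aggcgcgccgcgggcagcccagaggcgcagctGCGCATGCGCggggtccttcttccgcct
Mrpl32: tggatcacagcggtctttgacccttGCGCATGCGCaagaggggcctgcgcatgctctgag
Mrpl39, Mrpl9 and Mrpl32 thus hold the same 10 letters, and 1 of these 3 genes passed the test.

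Of the 5 raised genes with an ETS motif, Mrps22 has it nearest to the RefSeq start, 4 bases away, and Mrpl34 has it 30 bases away. Their windows, with the motif in capitals, lie at chr9:98601680-98601739 (minus strand) and chr8:71464862-71464921 (plus strand).
Mrps22: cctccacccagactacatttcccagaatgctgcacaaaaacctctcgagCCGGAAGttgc
Mrpl34: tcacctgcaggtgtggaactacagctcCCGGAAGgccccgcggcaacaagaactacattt
Mrps16, Mrps27 and Mrpl17 hold it farther off, 67, 41 and 230 bases from the start. The ETS factor gene Gabpa, chosen after its value was seen, had 44.4 CPM in both groups (log2 fold change 0.00, SE 0.0628). Gabpb1, Nrf1 and Yy1, also named after their values were seen, had 0.34, 0.25 and 0.05. None of them passed the test (edgeR adjusted p = 0.309, 0.517 and 0.463). Gabpb1 and Nrf1 were poorly counted, at 0.99 and 1.14 CPM in controls, so their changes are not settled. A match of letters describes the sequence and is no measure of binding.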

How the data were processed

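A stranded kit for total RNA was used, per the labels' protocols. Trim Galore, TopHat and HTSeq, without versions, and the builds mm9 and GRCm38 are named in the submitters' processing notes; further settings are not given in the sources used here. The authors deposited raw counts for 58611 Ensembl transcripts in each library, of which 58264 matched GENCODE M21 (GRCm38) and were summed per gene. Unmatched rows, at most 0.0497% of a library, stayed as unnamed features. Reads shared by several rows appear uncounted, and whether strand was used is not given.

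Genes were tested with edgeR 4.0.16 (R 4.3.3; quasi-likelihood, two-sided, TMM, filterByExpr, Benjamini-Hochberg over 11616 genes, called at 0.05). SE is the absolute log2 fold change over the root of F. CPM used TMM-scaled library sizes. Alternatives used DESeq2 1.42.0, limma 3.58.1, other scalings and filters, single rows, a replicate block, a test against 1.2-fold and each library left out. Members, lists and motifs were chosen with earlier results of these data known. The naming rule took, per subunit, the 6 smallest p per direction, the 2 largest and 2 most negative changes, the 3 highest levels per length, all lowered members, Mrps30, Mrps18a and Mrps36, and from other lists up to 4 calls per direction (3 for mitochondrial RNAs).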

Additional observations from a re-analysis of the deposited data

How the results depend on the processing

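Counts were 3 raised (3 large, 0 small), 0 lowered (0 large, 0 small) and, for assembly factors, 3 raised and 0 lowered when tested against 1.2-fold, a stricter question. With library size as the scaling 1 member was lowered (0 large), and the medians were 0.17 (large) and 0.10 (small). With no filter the small subunit median was 0.0181 and the difference between subunits 0.0943, and by structure the difference was 0.0203. With each library left out in turn, members raised ran from 11 to 21 and lowered from 1 to 4, large raised from 8 to 15 and lowered from 0 to 2, small raised from 3 to 6 and lowered from 1 to 2, assembly factors raised from 8 to 12 and lowered from 2 to 3. The large median ran from 0.0905 to 0.121, the small from 0.0158 to 0.0826 and their difference from 0.0233 to 0.0894. Over the 15 alternatives other than the 1.2-fold test, 9 of 20 raised and 1 of 3 lowered members kept their call in each. Uncalled Mrpl30 turned to 0.023 without Luc siRNA replicate 1 (lowest -0.275, without Luc siRNA replicate 3), and uncalled Mrps30 to 0.0173 with library size scaling and 0.0069 without Crebl2 siRNA replicate 1 (lowest -0.0732). The replicate block gave 15 raised and 2 lowered members (1 large); same-numbered libraries did not deviate together (r = -0.133, -0.0443 and -0.0847), so the numbers were not taken as pairs. Too few counts left 14 members untested, 8 of them with at most 130 unique bases.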
